A study of Mus musculus with 4 samples.

Results

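The 10 genes described here encode apolipoproteins and proteins that assemble or esterify the lipid cargo of lipoproteins in the endoderm of the yolk sac. They are Apoa1, Apoa2, Apoa4, Apob, Apoc2, Apoe, Apom, Mttp, Soat2 and Pla2g12b, and they were taken by symbol from the 21953 genes named on the array, together with all 14 of their probes. They were measured in pools of whole mouse embryos homozygous for V1330M in Btaf1, an allele induced by the mutagen ENU that the labels also write Btaf1-/-, against pools of Btaf1+/+ embryos. All embryos were C57BL/6J and FVB/NJ hybrids with 50 to 90% FVB, collected at 3 to 5 somites where possible. In the stage_matched set, mutant and wild-type pools were matched first by somite number. In the age_matched set they were matched first by litter, and differed by up to 5 somites. Each set was 1 mutant and 1 wild-type pool on 2 arrays, replicate 1 with the mutant pool in Cy5 and replicate 2 with it in Cy3, so there were 4 arrays but n = 2 replicates. The labels do not give the number of embryos in a pool, whether the sets shared embryos, or whether yolk sacs were left on. The BTAF1 protein uses ATP to strip TBP, the TATA-binding protein, off DNA.

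Before the liver forms, the visceral endoderm of the yolk sac is the main source of plasma lipoproteins in the mouse embryo. Apolipoprotein B forms the scaffold of the particle and receives its lipid in the endoplasmic reticulum from the microsomal triglyceride transfer protein, encoded by Mttp. Small exchangeable apolipoproteins then coat the particle and steer its metabolism, as activators of lipases, ligands of receptors or acceptors of cholesterol. Mice that lack Apob or Mttp die before birth, with lipid retained in the yolk sac endoderm.

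Between 52.2% and 59.0% of the probes of an array exceeded background clearly in the mutant pool, and between 56.5% and 58.9% in the wild-type pool, with 0 saturated spots. Transcripts of the yolk sac endoderm were present: probes for Afp (alpha-fetoprotein), Ttr (transthyretin), Rbp4 (retinol-binding protein), Amn and Cubn were well above background in both channels of all 4 arrays, whereas Alb (albumin) was not on any. Values are given as the log2 of the mutant level over the wild-type level, so that a negative value is a lower level in the mutant. A mean is that of the 2 set means and its error is the SD between them, in which the spread between the arrays of a set has no part. The sets were matched in different ways and may share embryos, so this SD is not one between like, independent replicates. Of 41174 probes, 21940 were bright enough to test with limma, and 365 of them were higher and 690 lower in the mutant at an adjusted p under 0.05. Higher probes made up 34.6% of these calls, against 12.7% when arrays were centred on their median in place of loess.

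All 10 genes had a tested probe, and 9 of them were lower in the mutant by limma: Apoa1, Apoc2, Apoa2, Apom, Apoa4, Pla2g12b, Apob, Soat2 and Apoe. Over all 13813 genes tested, 2.77% were called lower. Mttp did not pass, with a mean of -0.45 ± 0.26 (SD, n = 2; limma adjusted p = 0.0600). By probe, 11 of the 12 tested probes of these genes were lower, against 3.14% of all tested probes. Of these, Apoa2 A_51_P128973 and Apob A_51_P413088 were tested only through the wild-type channel, where they were brighter. With both channels required to be well above background on all arrays, 9 of the genes were tested and 8 were lower. At the brightest tested probe of each gene, 10 of 10 genes were negative on all 4 arrays, against 13.8% of all genes. These genes were chosen with earlier results of these data known, so the shares describe them and do not test them as a group. The 10 genes had a median of -0.85 over both sets, of -0.72 in stage_matched and of -0.90 in age_matched pools, where the medians of all genes were 0.02, 0.01 and 0.02. The calls leaned on array age_matched replicate 1. Without it, limma called 2 of the 10 genes lower, Apoa1 and Apoc2, and 23 probes in all, although all 10 genes stayed negative. With an array missing, its set is left in 1 dye orientation, and the dye effect of a probe no longer cancels there.

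**Figure D1:**
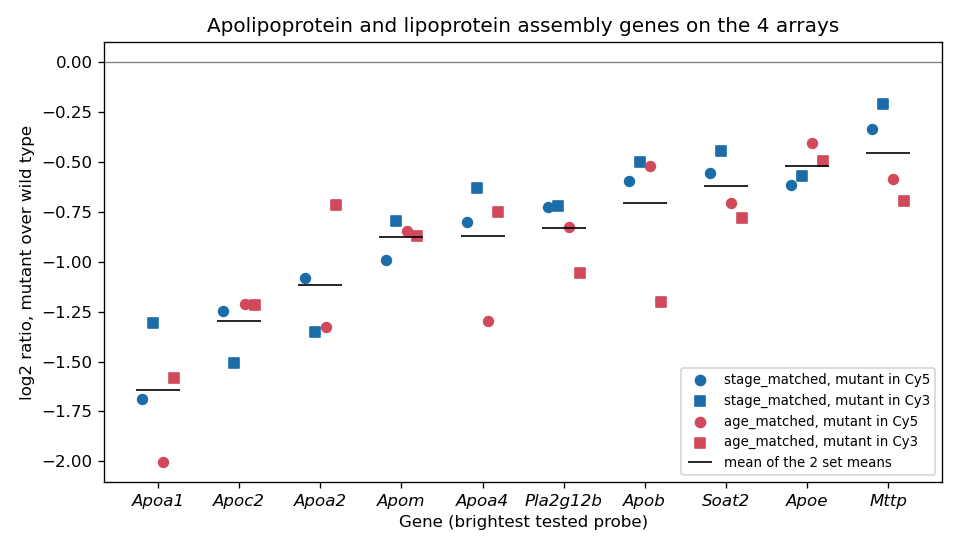
Log2 ratio of mutant over wild type (vertical axis) for the 10 genes at their brightest tested probe, with 1 symbol per array. Colour gives the set, shape the dye of the mutant pool and the black bar the mean of the 2 set means; every symbol lies below 0, from -2.0 for Apoa1 to -0.21 for Mttp.

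Of the proteins of high-density lipoprotein (HDL), Apoa1, Apoa2 and Apom were lower in the mutant, and Apoa1 had the lowest mean of the 10 genes. Apoa1 encodes the main protein of HDL, which takes up cholesterol from cells. It read -1.69 and -1.31 in the stage_matched set and -2.0 and -1.58 in the age_matched set. All 4 values were lower than that of any other of the 10 genes on the same array except Apoc2 and Apoa2 on stage_matched replicate 2. The mean of -1.64 ± 0.21 (SD, n = 2) was a level 3.13-fold lower in the mutant (limma adjusted p = 0.000753), and placed Apoa1 at rank 2 from the lowest of 13813 genes. Its processed signal was 922 in the mutant against 3116 in the wild-type pool on stage_matched replicate 1, and 789 against 3239 on age_matched replicate 1. The array carries the Apoa1 probe in 10 copies, and so also the probe of Apoe, the receptor ligand described below. Both 60-base probes are shown because their copies measure the error of a single spot. They lie at chr9:46037921-46037980 on the plus strand and chr7:20281732-20281791 on the minus strand (mm9), and the position of exons in that build was not used here.
Apoa1 A_51_P408082: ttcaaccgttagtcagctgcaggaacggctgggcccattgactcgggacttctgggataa
Apoe A_51_P171999: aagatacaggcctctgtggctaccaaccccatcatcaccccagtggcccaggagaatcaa

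The 10 Apoa1 spots ranged from -1.99 to -1.53 on stage_matched replicate 1 and from -1.36 to -1.23 on stage_matched replicate 2. On the age_matched arrays they ranged from -2.15 to -1.89 and from -1.81 to -1.24. The SD between spots of 1 array was 0.159, 0.0496, 0.0911 and 0.206 in that order. The Apoe spots left after removal of marked ones (9, 10, 10 and 8) ranged from -0.88 to -0.28, from -0.67 to -0.36, from -0.72 to -0.12 and from -0.58 to -0.40. Thus every used spot of both probes was negative, and the highest Apoa1 spot on any array lay below the lowest Apoe spot on any array. Where a gene had 1 spot per array, the error of a single spot was part of each of its values, and its size was not measured.

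**Figure D2:**
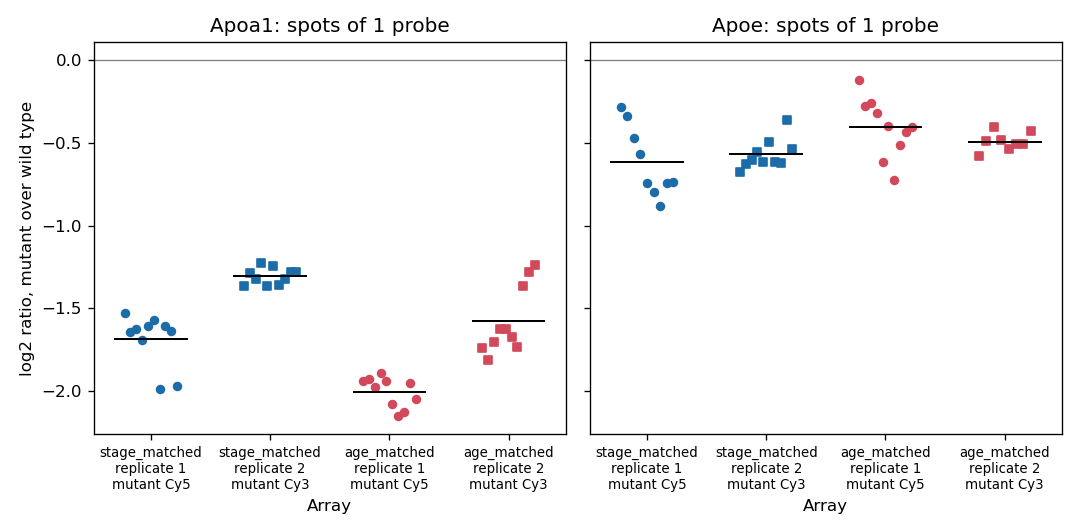
Log2 ratio of single spots of the Apoa1 probe (left) and the Apoe probe (right) on each of the 4 arrays, with the array mean as a black line. Each array carries 10 copies of either probe; the Apoa1 spots lie between -2.15 and -1.23 and the Apoe spots between -0.88 and -0.12.

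Apoa2, a smaller structural protein of HDL, was read by 1 spot (A_51_P128973, chr1:173155858-173155917, mm9). It read -1.08 and -1.35 in the stage_matched set and -1.33 and -0.71 in the age_matched set. The mean was -1.12 ± 0.14 (SD, n = 2), 2.17-fold lower (limma adjusted p = 0.00236), with the highest value on age_matched replicate 2. The mutant pool was well above background on 3 of the 4 arrays. On that array its processed signal was 56.8, against 202 in the wild type. With the processed signals of the scanning software, the mean was -1.72. Without age_matched replicate 1 the ratio was -0.97 and Apoa2 lost its call.

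Apom encodes the HDL protein that carries sphingosine-1-phosphate. Its ratios were close on all arrays, -0.99 and -0.80 in the stage_matched set and -0.84 and -0.87 in the age_matched set (A_52_P150236, chr17:35267047-35267106, minus strand, mm9). Averaged over the sets it was at -0.88 ± 0.025 (SD, n = 2; limma adjusted p = 0.00536), and the sets overlapped. It was a bright probe, with processed signals from 3656 to 4837 in the mutant and from 6691 to 8327 in the wild type. Without age_matched replicate 1 the ratio was -0.88 and was not called.

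Apoa1 and Apoa4 lie in a gene cluster on chromosome 9, in the order Apoa1, Apoc3, Apoa4, Apoa5. Apoa4 encodes an apolipoprotein of intestinal particles. Its probe spans 744 bases of mm9 (A_51_P327491, chr9:46049661-46050404), so that it joins sequence from more than 1 exon. It read -0.80 and -0.63 in the stage_matched set and -1.30 and -0.75 in the age_matched set. The age_matched replicate 1 array was the lowest, and the sets overlapped. On average Apoa4 was at -0.87 ± 0.22 (SD, n = 2), with limma adjusted p = 0.00915. The mean was -1.31 with the processed signals of the software, and the call was lost without background correction (-0.66) and without age_matched replicate 1 (-0.73).

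The neighbours of Apoa1 and Apoa4 on chromosome 9 were not called. The tested probe of Apoa5, which aids the clearance of triglyceride, was well above background in both pools on all 4 arrays. Apoa5 read -0.19, -0.19, -0.41 and -0.23 there, with a mean of -0.25 ± 0.094 (SD, n = 2) that did not pass (limma adjusted p = 0.157). Apoc3, an inhibitor of lipoprotein clearance, lies between both members. Its brighter probe was well above background in the mutant on 2 arrays and in the wild type on 3, too few to be tested, and read -0.16, -0.03, -0.09 and -0.05. The 4 genes of the cluster thus gave a range from -1.64 for Apoa1 to values near 0 for a probe close to background.

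Apoc2 and Apoe stand at the ends of a cluster on chromosome 7, in the order Apoc2, Apoc4, Apoc1, Apoe. Apoc2 encodes the cofactor of lipoprotein lipase. It read -1.25 and -1.51 in the stage_matched set and -1.21 and -1.22 in the age_matched set (A_51_P334979, chr7:20257027-20257086, minus strand, mm9). The mean was -1.29 ± 0.11 (SD, n = 2), a level 2.45-fold lower in the mutant (limma adjusted p = 0.00144) and rank 15 from the lowest. Processed signals were 5719 to 7408 in the mutant and 14165 to 17350 in the wild type. Apoa1 and Apoc2 kept their calls under all 12 other processings and array removals.

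Apoe encodes a ligand of lipoprotein receptors that many cell types make. Its fall was smaller, with -0.62 and -0.57 on the arrays of the stage_matched set and -0.41 and -0.49 on the arrays of the age_matched set. The mean of -0.52 ± 0.10 (SD, n = 2) was 1.44-fold lower and passed the test (limma adjusted p = 0.0260). Its signal was 14889 to 18770 in the mutant and 21268 to 24664 in the wild type. The call was lost without background correction (-0.51), without stage_matched replicate 1 (-0.51), without age_matched replicate 1 (-0.54) and without age_matched replicate 2 (-0.50), while the ratio moved little.

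Between Apoc2 and Apoe, Apoc1 (an inhibitor of lipid transfer and lipase) read -0.54 and -1.06 in the stage_matched set and -0.15 and -0.75 in the age_matched set. In both sets the array with the mutant in Cy3 was the lower. Its mean was -0.62 ± 0.25 (SD, n = 2; limma adjusted p = 0.0245), a call lost without background correction, without age_matched replicate 1 and without age_matched replicate 2. Apoc4 was well above background on 0 arrays and was not tested. Thus 3 of the 4 genes of the chromosome 7 cluster were measured, and all 3 fell.

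Apob encodes the protein that every chylomicron, VLDL and LDL particle is built on, and its long transcript was read by 5 probes on chromosome 12. They are shown in transcript order because they did not all give the same reading. In mm9 on the plus strand they lie at chr12:8005482-8007691, chr12:8014710-8014769, chr12:8018741-8018800, chr12:8023134-8023193 and chr12:8023194-8023253, and start at bases 3189, 6486, 10517, 13397 and 13457 of the transcript by the position column of the files.
Apob A_51_P436690: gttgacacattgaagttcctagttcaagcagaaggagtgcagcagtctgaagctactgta
Apob A_51_P413088: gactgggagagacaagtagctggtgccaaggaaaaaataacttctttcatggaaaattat
Apob A_51_P380650: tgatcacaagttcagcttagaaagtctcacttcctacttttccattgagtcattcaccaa
Apob A_51_P470542: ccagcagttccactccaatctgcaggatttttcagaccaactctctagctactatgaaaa
Apob A_52_P441070: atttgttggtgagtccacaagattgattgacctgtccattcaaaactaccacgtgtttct

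Of the Apob probes, the last, A_52_P441070, was the brightest and stands for the gene. It read -0.59 and -0.50 in the stage_matched set and -0.52 and -1.20 in the age_matched set, with a mean of -0.70 ± 0.22 (SD, n = 2; limma adjusted p = 0.0176). The adjacent probe A_51_P470542, which ends 1 base before it, read -0.74, -0.42, -0.82 and -1.05, with a mean of -0.76 ± 0.25 (SD, n = 2; limma adjusted p = 0.0157). On both, age_matched replicate 2 was the lowest array. The Apob call was lost without background correction (-0.56), without age_matched replicate 1 (-0.87) and without age_matched replicate 2 (-0.53).

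The Apob probe A_51_P413088 fell too, with a mean of -0.83 ± 0.46 (SD, n = 2; limma adjusted p = 0.0248), but age_matched replicate 2 was its highest array. It read -0.99 and -1.32 in the stage_matched set and -0.61 and -0.39 in the age_matched set. The age_matched minus stage_matched difference was 0.66 ± 0.18 (SE of the fit; limma adjusted p = 0.0157). It was the 1 call among the 12 tested probes, where 2.31% of all tested probes were called, and its error is the technical spread between dye-exchanged arrays. In the tested probes at bases 13397 and 13457 the difference ran the other way, -0.35 (limma adjusted p = 0.410) and -0.31 (0.505). The dim probes at bases 3189 and 10517, on either side of A_51_P413088, were not tested. They ran the same way as A_51_P413088, from -0.79 to -0.24 and from -0.31 to 0.001 (stage_matched to age_matched means). The processed signal of A_51_P413088 in the wild type was 251 and 394 in the stage_matched set and 166 and 55.0 in the age_matched set, and the mutant was well above background on 3 of 4 arrays. Whether signal near background bears on the difference was not tested.

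The 2 remaining Apob probes were too dim to test. A_51_P436690 was well above background in the wild type on 3 arrays and in the mutant on 0, and read -0.75, -0.83, -0.47 and -0.01. With the mutant signal set no lower than the lowest signal well above background on each array, the mutant level was 1.28-fold lower. That mean takes in all 4 arrays, also where the wild type was not well above background, so it is not a strict bound. A_51_P380650 was above background in the wild type on 3 arrays and in the mutant on 1, and read -0.26, -0.36, -0.08 and 0.08. Over the 5 Apob probes and 4 arrays, this last value was the only one above 0.

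**Figure D3:**
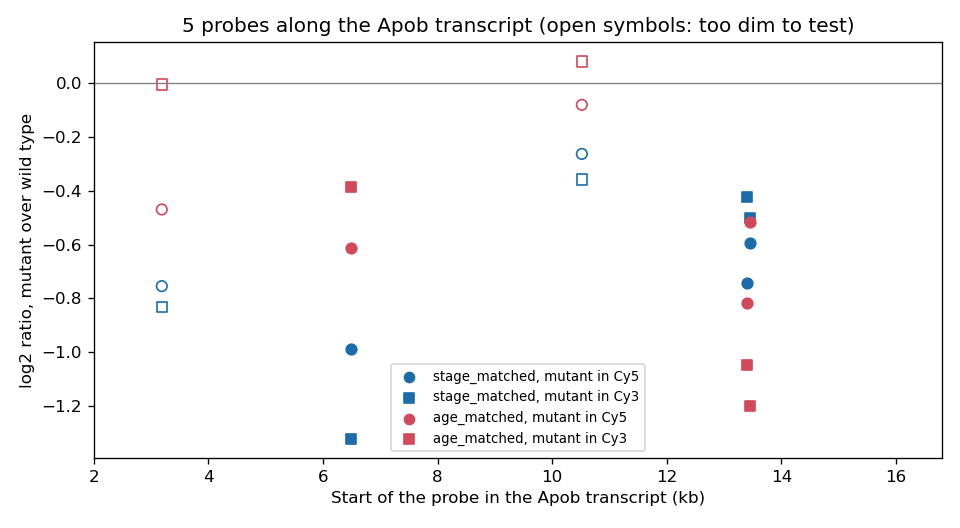
Log2 ratio of mutant over wild type on each array for the 5 Apob probes, placed by their start in the transcript (horizontal axis, kb). Filled symbols are tested probes and open symbols probes too dim to test. The probe that starts at base 6486 was called in the set difference, with -0.99 and -1.32 against -0.61 and -0.39. The dim probes at bases 3189 and 10517 were also lower in the stage_matched set.

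Among the enzymes and factors of assembly, Pla2g12b and Soat2 fell. Pla2g12b encodes a member of the phospholipase family without catalytic activity, which takes part in lipid loading of particles that contain apolipoprotein B. It read -0.72 and -0.72 in the stage_matched set and -0.83 and -1.05 in the age_matched set (A_51_P184385, chr10:58884374-58884433, mm9). The difference between the sets was not called (limma adjusted p = 0.717). Averaged over the sets the ratio was -0.83 ± 0.16 (SD, n = 2; limma adjusted p = 0.00872), and the call was lost without age_matched replicate 1 (-0.89).

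Soat2 encodes the enzyme that esterifies cholesterol for secretion in lipoproteins. It read -0.56 and -0.44 in the stage_matched set and -0.71 and -0.78 in the age_matched set (A_51_P196997, chr15:101991526-101992443, mm9, a span of 918 bases). Averaged over the sets the ratio was -0.62 ± 0.17 (SD, n = 2), with limma adjusted p = 0.0206. It was -1.0 with the processed signals, and the call was lost without background correction (-0.46) and without age_matched replicate 1 (-0.64). Its paralogue Soat1, which esterifies cholesterol in most other cells, read 0.26 ± 0.18 (SD, n = 2; limma adjusted p = 0.177) at its brightest probe and -0.13 and -0.08 at its other tested probes (limma adjusted p = 0.463 and 0.729).

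Mttp encodes the transfer protein that loads lipid onto apolipoprotein B. It read -0.33 and -0.21 in the stage_matched set and -0.58 and -0.69 in the age_matched set (A_51_P178887, chr3:137757948-137758007, minus strand, mm9). The difference between the sets was not called (limma adjusted p = 0.363). Processed signals were 137 to 169 in the mutant and 198 to 316 in the wild type. The call changed with the processing: Mttp passed with the processed signals (-0.65, limma adjusted p = 0.0459), with 1 median value per gene (limma adjusted p = 0.0189) and without stage_matched replicate 2 (-0.49, limma adjusted p = 0.0391).

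The 10 genes spanned a range from -1.64 to -0.45, and their order differed between arrays. To see how their ratios lay beside those of other yolk sac transcripts, each was set against the median of 15 tested markers of visceral endoderm on the same array, which was -0.86, -0.85, -1.05 and -0.85 on stage_matched replicates 1 and 2 and age_matched replicates 1 and 2. Relative to it Apoa1 stood at -0.74 ± 0.14 (SD, n = 2) and Apoc2 at -0.39 ± 0.18, both below it on 4 of 4 arrays. Apoa2, Apom, Apoa4, Pla2g12b and Apob lay below it on 3, 2, 1, 1 and 1 arrays, with means from -0.21 to 0.20. Soat2, Apoe and Mttp lay above it on all 4 arrays, by 0.28 ± 0.10, 0.38 ± 0.17 and 0.45 ± 0.19. These differences were not tested against other genes.

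Most of the markers themselves moved with the apolipoprotein genes. Of 17 listed markers of visceral endoderm and yolk sac endoderm, 15 were tested, 11 were lower and 0 higher by limma, with a median of -0.97. By their means, 13 of the 15 were negative. Spink1 (0.26 ± 0.085, SD, n = 2; limma adjusted p = 0.151) and Sox17 (0.30 ± 0.31; limma adjusted p = 0.186) were positive on all 4 arrays at their brightest tested probe. Without age_matched replicate 1, 3 of the 15 markers were called lower, Slc2a2, Rbp4 and Afp, with a median of -0.87, and without background correction 7 were. Their summed signal, a sum of normalized signals in which the brightest genes weigh most, was 44830 to 51321 in the mutant and 85722 to 92995 in the wild type. Of the markers of primitive red cells, 6 of 8 were tested and 2 fell, Hbb-bh1 and Hba-x (0 without age_matched replicate 1 and 0 without background correction), with summed signals of 3350 to 8343 in the mutant and 15034 to 18142 in the wild type. The globins were lower in the age_matched set: Hbb-bh1 read -1.14 in stage_matched and -2.14 in age_matched pools (limma adjusted p of the difference = 2.25e-05), Hba-x -1.04 and -2.10 (4.2e-06) and Hbb-y -0.32 and -1.19 (0.000288). The other tested genes of this list ran the other way, and their set differences were not called by limma. In stage_matched and age_matched pools, Klf1 read -0.44 and -0.27, Alas2 -0.27 and -0.09 and Epor -0.04 and 0.21. As for Apob, the error of these differences is technical. Of the markers of trophoblast (4 tested of 8) and maternal decidua (5 of 6), 0 were called by limma over both sets, and 0 had an unadjusted p under 0.05, with medians of -0.05 and -0.20. Some of them differed between the sets: Prl8a2, of decidua, read -0.94 in the stage_matched and 0.51 in the age_matched pools (limma adjusted p of the difference = 2.74e-11), and Prl3d1, of trophoblast, -0.39 and 0.49 (0.000243). Over the 4 arrays, the summed signals of these 2 lists overlapped between mutant and wild type: 1859 to 2429 against 2215 to 2608 for trophoblast, and 993 to 1215 against 1135 to 1246 for decidua. Within arrays, both sums were lower in the mutant on both stage_matched arrays. On the age_matched arrays, trophoblast was higher in the mutant on both, and decidua was lower on replicate 1 and higher on replicate 2. Of the markers of definitive gut endoderm, 6 of 7 were tested, with 1 higher, 1 lower and a median of 0.12. The part of yolk sac tissue in the ratios of the 10 genes was not tested. In RNA of whole embryos, fewer cells of a type and less RNA per cell cannot be told apart.

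By Euclidean distance over the 4 arrays, the 4 genes closest to the median of the 10 were Rabggtb (a subunit of the enzyme that prenylates Rab proteins, distance 0.12), Timd2 (a receptor for ferritin, 0.17), Spp2 (a secreted phosphoprotein, 0.19) and Serpinf2 (the plasma inhibitor of plasmin, 0.20). Their means ran from -0.71 for Serpinf2 to -0.85 for Spp2.

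Most other genes of lipoprotein metabolism did not pass the test. Of 21 further genes of lipoprotein assembly and secretion, 18 were tested and 0 passed limma's adjusted p in either direction, with a median of -0.01. At an unadjusted p under 0.05 there were 6 of the 18, against 22.7% of all genes, and with the processed signals of the software 1 was called higher. At their brightest tested probes they ranged from -0.34 for P4hb, the partner subunit of the transfer protein, to 0.26 for Soat1. The probes of Mia2, also on this list, disagree, with 0.25 at the brightest and -0.52 at the other (limma adjusted p = 0.194 and 0.144). Dgat1 and Dgat2, which make triglyceride, read -0.28 ± 0.092 and -0.07 ± 0.0093 (SD, n = 2), and the other tested probes of Dgat2 read -0.25 and -0.18. Sar1b, the GTPase of the vesicle coat that exports particles, read 0.07 ± 0.0082. Of 15 genes of remodelling in plasma and cholesterol efflux, 10 were tested, 0 passed limma's adjusted p (3 at an unadjusted p under 0.05) and the median was -0.06.

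Among 11 other apolipoproteins, 6 were tested, 2 fell, 1 rose and the median was -0.14. Besides Apoc1, the fall was in Apol8, of the apolipoprotein L family (-0.48 ± 0.031, SD, n = 2; limma adjusted p = 0.0298). Clu, which encodes clusterin or apolipoprotein J and is made in many tissues, rose by 0.55 ± 0.047 (SD, n = 2; limma adjusted p = 0.0214), with 0.39 and 0.64 in the stage_matched set and 0.61 and 0.55 in the age_matched set. It was positive on all 4 arrays, and from 0.45 to 0.67 under the other processings and array removals, but its call was lost with median centring, without background correction and without age_matched replicate 1. Apol8 lost its call without background correction and without each array other than stage_matched replicate 2.

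All 17 listed receptors and their partners were tested, 3 fell and 0 rose, with a median of -0.07. Amn (-1.07 ± 0.059, SD, n = 2; limma adjusted p = 0.00229) and Cubn (-1.04 ± 0.35; limma adjusted p = 0.00872) together encode an endocytic receptor of the visceral endoderm that binds apolipoprotein A-I, and both are also among the markers above. Scarb1, the receptor for HDL, fell by 0.53 ± 0.12 (SD, n = 2; limma adjusted p = 0.0260). Lrp2, the partner of cubilin in uptake, read -0.04 ± 0.21 (SD, n = 2), and 0.10 and -0.13 at its other tested probes. Without age_matched replicate 1, 0 of the 17 were called, and Scarb1 was also lost without stage_matched replicate 1. Without background correction Amn alone kept its call, and Cubn read -1.03 and Scarb1 -0.50.

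Of 24 regulators of apolipoprotein genes 16 were tested. At their brightest tested probe 2 fell and 0 rose, with a median of -0.04. Hnf4a, a nuclear receptor that drives apolipoprotein genes in liver and visceral endoderm, read -0.70 and -0.53 in the stage_matched set and -0.61 and -0.60 in the age_matched set, a fall of 0.61 ± 0.0065 (SD, n = 2; limma adjusted p = 0.0171). That was its brighter probe, A_52_P683991. The other tested Hnf4a probe, A_51_P198473, read 0.04 and was negative on 1 array (limma adjusted p = 0.817), so the probes disagree on whether Hnf4a fell. The probes of Nr2f2 disagree too. Its brighter probe, by which it was counted, read -0.05 (limma adjusted p = 0.803). The other, A_51_P147684, read -0.82 and was negative on all 4 arrays (limma adjusted p = 0.0111). Foxa2, Gata4 and Gata6, which also act in other tissues of the embryo, read 0.21 ± 0.26, -0.09 ± 0.071 and -0.12 ± 0.020 (SD, n = 2) and did not pass. Without age_matched replicate 1, 0 of the 16 were called, and likewise 0 without background correction, where Hnf4a read -0.44.

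**Figure D4:**
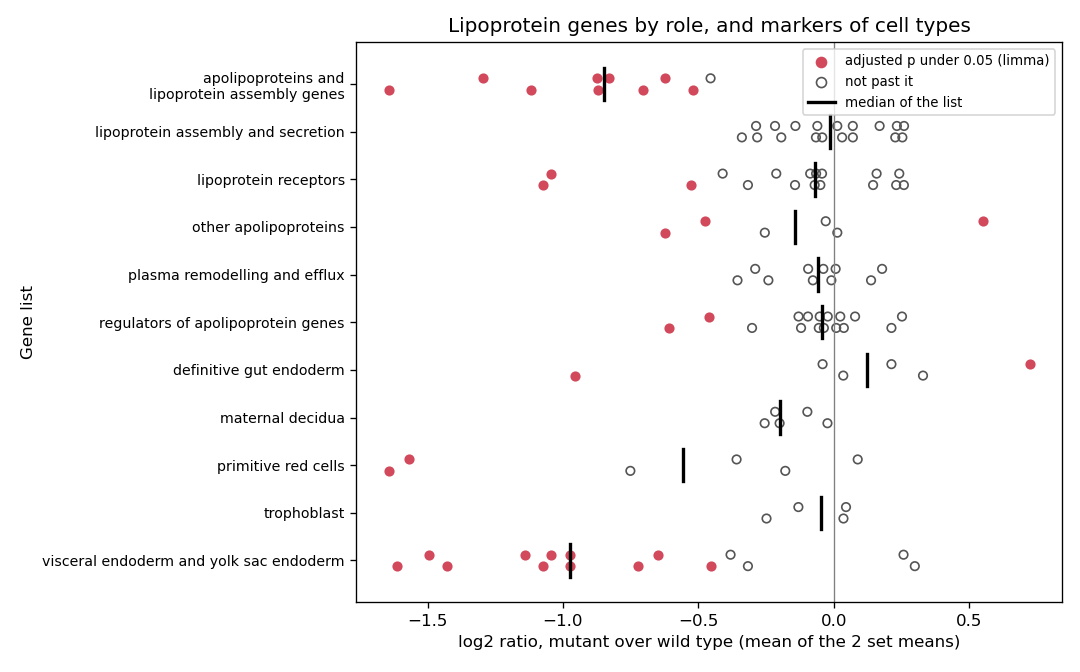
Log2 ratio of mutant over wild type (horizontal axis, mean of the 2 set means) for the tested genes of each list, 1 symbol per gene. Red symbols passed an adjusted p under 0.05 (limma), open symbols did not, and the black line is the median of the list, -0.85 for the apolipoprotein and assembly genes, -0.01 for further genes of assembly and secretion and -0.97 for the markers of visceral endoderm.

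The promoters of genes that moved together were searched for short motifs, among them the TATA box, which TBP binds, and 4 of the searches are given. RefSeq promoters (GRCm38.p6, 250 bases before to 50 after the start) matched 9 of the 10 genes, with 12 windows, and exact letters were sought on both strands. TATAAA was in 3 of the 12 windows, 1 each of Apoa2, Apob and Apoe, against 13.6% of 32851 promoters. The matches began 212 bases before the start in Apoa2, 60 in Apob, and 100 and 96 in Apoe. None of them lay 45 to 15 bases before the start, where 2.14% of all promoters held TATAAA on the strand of the gene. TGTTTAC, of FOXA factors, was in 2 windows (Apoa2 and Apoe), against 3.65%. CAAAGTCCA, a core bound by HNF4A, and AGATAA, of GATA factors, were in 0, against 0.475% and 11.2%. A match is a description of letters, and the absence of one says only that these letters were not in the window.

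The 250 bases before the start of 2 genes are shown, Apob with TATAAA and Apoa1 with none of these 4 motifs; capitals mark the match. They lie at chr12:7977427-7977676 (plus strand) and chr9:46228380-46228629 (plus strand) of GRCm38.p6. The match in Apob begins 60 bases before the start.
Apob: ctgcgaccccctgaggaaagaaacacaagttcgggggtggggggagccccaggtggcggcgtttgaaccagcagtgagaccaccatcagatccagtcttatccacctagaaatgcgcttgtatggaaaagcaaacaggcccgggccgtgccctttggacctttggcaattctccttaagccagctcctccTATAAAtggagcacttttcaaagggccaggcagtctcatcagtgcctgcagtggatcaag
Apoa1: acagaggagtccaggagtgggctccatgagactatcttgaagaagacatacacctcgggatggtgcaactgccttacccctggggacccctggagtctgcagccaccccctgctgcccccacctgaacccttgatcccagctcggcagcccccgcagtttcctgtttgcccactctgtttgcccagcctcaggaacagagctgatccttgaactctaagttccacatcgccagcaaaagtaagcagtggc

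**Figure D5:**
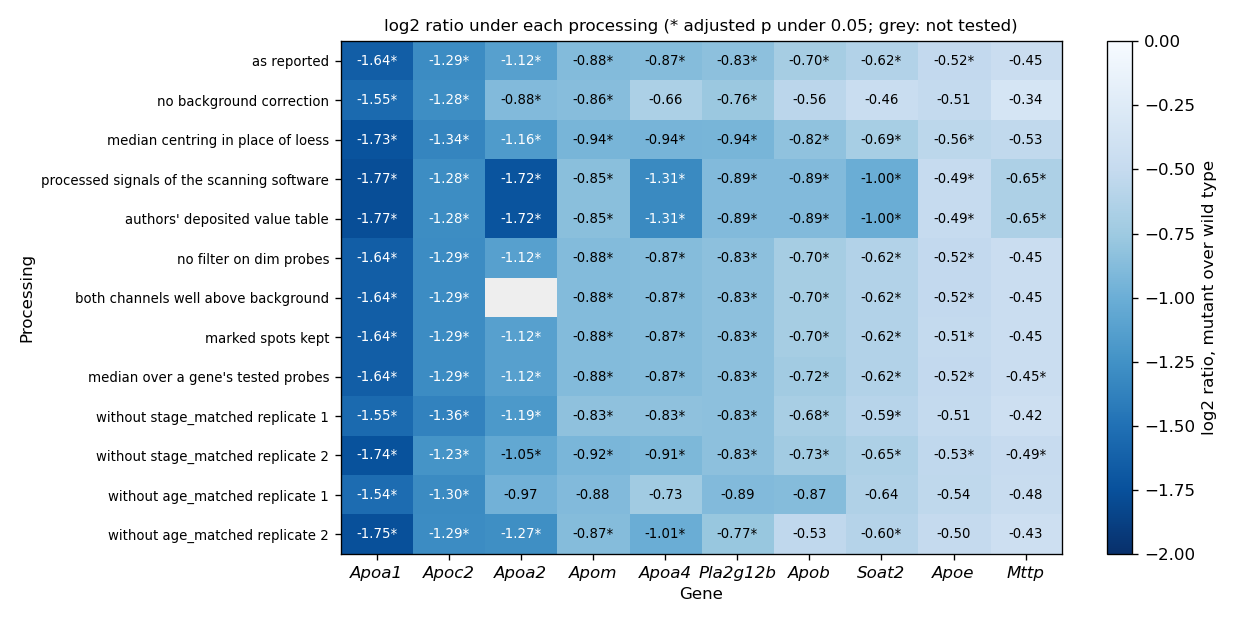
Log2 ratio of mutant over wild type for the 10 genes (columns) under the processing used here and each of 12 alternatives (rows), with darker blue for lower ratios and a star where the limma adjusted p was under 0.05. Every value is negative; most stars are missing without age_matched replicate 1, where Apoa1 and Apoc2 keep theirs, and the grey cell is Apoa2, not tested where both channels had to be well above background.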

How the data were processed

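The deposited scanner files hold spot and background intensity per dye, unnormalized in the columns of mean signal and of median background, per the file headers. The log10 ratio of processed Cy5 over Cy3 in the deposited files comes from the scanning software, per the file headers, and the authors' deposited value table holds it turned to mutant over wild type. The labels name Feature Extraction 9.5.3 and the file headers 10.5.1.1. All 4 arrays sat on 1 slide with 1 scan.

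With limma 3.58.1 (R 4.3.3), background was corrected by normexp (offset 50) and dye bias by loess within arrays, with control and marked spots at weight 0. Marked spots were left out, signs turned and spots of a probe averaged. A probe was tested if well above background in the mutant or the wild-type channel on all 4 arrays (36 more had a marked spot). The dye-exchanged arrays of a set were averaged, and the 2 set means tested against 0 with lmFit and eBayes (1 residual degree of freedom, 7.12 prior), two-sided, with Benjamini-Hochberg adjustment over 21940 probes. A gene is its brightest tested probe, and 25097 probes were named through RefSeq accessions. For the set difference, the model over 4 arrays had a set term and a dye term. For the summed signals of marker lists and the limit set for a dim Apob probe, arrays were also normalized to each other (Aquantile). These signals include the offset of 50.

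The genes and lists were chosen with earlier results of these data known. Named genes are the 10 genes, up to 5 called genes per role list, their cluster neighbours and the nearest by distance (5 in the rule); others named without a call were picked to illustrate a list, and some results the rule names are not reported here. On simulated data the fit recovered the known ratios but made more false calls than its threshold states, so adjusted p values are likely too small.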

Additional observations from a re-analysis of the deposited data

Results flagged for a closer look

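The ratio of the Apob probe A_51_P413088 differed between the sets, by 0.66 (age_matched minus stage_matched; SE 0.18, limma adjusted p = 0.0157). Its values were -0.99 and -1.32 in the stage_matched and -0.61 and -0.39 in the age_matched set, lower in the mutant on 4 of 4 arrays. Each set was a single pair of pools, so the error is the technical spread between dye-exchanged arrays, and the p value says nothing of variation between embryos. The difference was not called without background correction, with median centring, with the processed signals of the software, or in the deposited value table. The probe was not tested where both channels had to be well above background. The other tested Apob probes gave differences of -0.35 and -0.31, which were not called. The dim Apob probes A_51_P436690 and A_51_P380650 were not tested. Their means were -0.79 and -0.31 in the stage_matched and -0.24 and 0.001 in the age_matched set, the same way as A_51_P413088.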

How the results depend on the processing

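All 10 genes stayed lower in the mutant under all 12 alternatives in which they were tested, and 0 values reversed. The number called lower was 9 as reported, 5 without background correction and 2 to 10 when 1 array was left out. Without age_matched replicate 1, Apoa2, Apom, Apoa4, Pla2g12b, Apob, Soat2 and Apoe lost their calls. The median of the 10 genes was -0.85 as reported and -0.71 without background correction. The number of probes called was 1055 as reported, 62 without background correction, 1824 with the processed signals of the software and with the deposited value table, 595 with no filter on dim probes, and 23 to 1208 with 1 array left out. The 1 probe called in the set difference became 0 without background correction, with median centring, with the processed signals, with the deposited table and where both channels had to be well above background. With 2 pairs of pools, precision is limited by their number, and the test leans on variance shared between probes. Between no background correction and the processed signals, Apoa2 moved from -0.88 to -1.72, Apoa4 from -0.66 to -1.31 and Soat2 from -0.46 to -1.0. The cause of these shifts was not tested.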
